A study of Mus musculus with 18 samples.

Results

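The regions described here are the H3K9me3 peaks that lie at promoters of protein-coding genes in mouse embryonic stem cells (mESCs). Overlapping peaks of all 6 peak lists were merged on chromosomes 1 to 19 without chromosome 2, and a merged region was kept when it was shorter than 20 kb and overlapped the 1 kb on either side of the start of a coding (NM_) transcript in the deposited annotation. This gave 5264 promoter regions of 145014 merged regions in all. They lie at 5102 of 17948 coding genes. The length limit set aside another 496 regions, the shortest of them 20000 bp long, and the longest regions kept were 19800 bp. The lists come from ChIP-seq with an H3K9me3 antibody in E14TG2a cells, a male mESC line, of 3 genotypes with 2 libraries each: wild-type, *Uhrf1* KO and *Dhx9* KO. Per the study's methods the *Uhrf1* KO cells were clonal lines made by CRISPR-Cas9 in mESCs that carry an inducible silencing system, in which a KRAB repressor is tethered to a reporter gene, and the methods used here do not say how the *Dhx9* KO cells were made. No treatment or time point is given for these 6 libraries. The other 12 samples of the study were not analysed here.

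H3K9me3 is the histone mark of constitutive heterochromatin. It is written by SETDB1 and the SUV39H enzymes and bound by HP1 proteins. In mESCs it is best known over transposable elements and at the methylated allele of imprinting control regions, where the zinc finger protein ZFP57 and its cofactor TRIM28 bring in SETDB1. Many promoters lie in CpG islands, which are usually free of both DNA methylation and H3K9me3. A small class of CpG-island promoters, those of germline genes, is an exception and is held silent in mESCs by DNA methylation and by the repressors E2F6, MGA and MAX. UHRF1 binds hemimethylated DNA and brings in DNMT1 to keep CpG methylation through replication, and DHX9 is a helicase that unwinds RNA and RNA-DNA hybrids. The comparison of the knockouts with wild-type cells addresses whether H3K9me3 at endogenous sites depends on these proteins.

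Promoters of 2 kinds show what the data hold, and 8 of them are printed here from RefSeq on GRCm38.p6. Each stretch runs 5′ to 3′ on the gene's strand from 250 bases before the transcript start to 50 bases after it, with every CG dinucleotide in capitals. The first 3 belong to imprinted genes whose peak was present in both wild-type and both *Dhx9* KO libraries and absent from both *Uhrf1* KO libraries. *Peg3* (chr7:6730370-6730669, minus strand) encodes a zinc finger protein expressed from the paternal allele, *Nap1l5* (chr6:58907077-58907376, minus strand) is an imprinted retrogene, and *Mest* (chr6:30737800-30738099, plus strand) is paternally expressed.
Peg3: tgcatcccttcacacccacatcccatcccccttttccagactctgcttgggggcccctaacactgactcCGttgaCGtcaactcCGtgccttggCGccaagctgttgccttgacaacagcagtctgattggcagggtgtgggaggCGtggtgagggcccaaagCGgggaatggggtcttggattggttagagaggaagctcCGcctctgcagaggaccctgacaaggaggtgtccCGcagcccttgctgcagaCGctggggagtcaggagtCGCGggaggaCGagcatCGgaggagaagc
Nap1l5: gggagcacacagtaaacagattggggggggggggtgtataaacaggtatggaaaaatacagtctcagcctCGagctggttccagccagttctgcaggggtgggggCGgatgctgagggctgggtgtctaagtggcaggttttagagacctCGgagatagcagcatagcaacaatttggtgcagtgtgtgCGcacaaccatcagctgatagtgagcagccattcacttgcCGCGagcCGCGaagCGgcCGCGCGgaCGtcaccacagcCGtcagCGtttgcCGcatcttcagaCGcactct
Mest: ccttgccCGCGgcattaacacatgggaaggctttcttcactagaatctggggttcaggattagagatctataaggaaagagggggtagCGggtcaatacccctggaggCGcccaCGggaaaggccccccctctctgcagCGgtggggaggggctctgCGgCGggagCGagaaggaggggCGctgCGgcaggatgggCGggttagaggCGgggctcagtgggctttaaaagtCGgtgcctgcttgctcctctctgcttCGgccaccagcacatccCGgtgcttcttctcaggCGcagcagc

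The other 5 belong to germline genes. *Dazl* (chr17:50293571-50293870, minus strand) encodes an RNA-binding protein of germ cells, *Ddx4* (chr13:112652261-112652560, minus strand) a germ cell RNA helicase, *Mael* (chr1:166238695-166238994, minus strand) a protein of the piRNA pathway, and *Sycp1* (chr3:102936051-102936350, minus strand) and *Sycp3* (chr10:88459337-88459636, plus strand) proteins of the synaptonemal complex of meiosis. The first 4 had a peak over this stretch in all 6 libraries, and *Sycp3* only in the 4 knockout libraries.
Dazl: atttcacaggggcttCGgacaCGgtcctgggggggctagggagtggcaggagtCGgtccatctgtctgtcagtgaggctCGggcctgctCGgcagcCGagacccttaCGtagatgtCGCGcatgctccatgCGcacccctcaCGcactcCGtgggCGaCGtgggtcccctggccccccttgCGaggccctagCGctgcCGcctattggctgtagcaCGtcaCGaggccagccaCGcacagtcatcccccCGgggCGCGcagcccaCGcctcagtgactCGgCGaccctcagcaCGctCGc
Ddx4: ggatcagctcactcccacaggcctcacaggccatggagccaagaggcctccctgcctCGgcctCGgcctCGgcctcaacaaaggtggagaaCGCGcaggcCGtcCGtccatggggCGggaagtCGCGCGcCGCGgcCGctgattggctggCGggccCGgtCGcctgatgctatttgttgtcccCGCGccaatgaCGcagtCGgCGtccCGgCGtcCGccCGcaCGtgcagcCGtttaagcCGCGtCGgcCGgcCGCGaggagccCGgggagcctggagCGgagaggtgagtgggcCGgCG
Mael: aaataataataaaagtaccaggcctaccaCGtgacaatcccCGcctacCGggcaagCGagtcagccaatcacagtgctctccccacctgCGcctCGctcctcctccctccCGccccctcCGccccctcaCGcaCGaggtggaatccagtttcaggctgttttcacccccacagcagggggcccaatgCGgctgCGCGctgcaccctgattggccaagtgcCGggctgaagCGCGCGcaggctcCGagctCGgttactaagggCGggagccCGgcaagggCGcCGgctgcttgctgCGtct
Sycp1: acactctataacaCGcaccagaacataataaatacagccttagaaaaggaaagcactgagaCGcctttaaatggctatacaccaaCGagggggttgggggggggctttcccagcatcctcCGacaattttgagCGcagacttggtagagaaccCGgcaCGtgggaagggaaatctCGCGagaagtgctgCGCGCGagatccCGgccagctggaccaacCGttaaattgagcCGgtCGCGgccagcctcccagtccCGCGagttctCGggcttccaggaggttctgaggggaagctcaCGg
Sycp3: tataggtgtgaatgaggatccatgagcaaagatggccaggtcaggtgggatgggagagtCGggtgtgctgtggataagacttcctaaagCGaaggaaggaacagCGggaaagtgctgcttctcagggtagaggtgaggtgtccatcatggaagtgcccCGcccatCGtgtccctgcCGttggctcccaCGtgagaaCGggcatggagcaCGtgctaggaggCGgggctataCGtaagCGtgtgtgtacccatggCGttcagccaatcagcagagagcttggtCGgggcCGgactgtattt

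All 8 stretches lie wholly within their merged region. They hold 13 CG dinucleotides at *Peg3*, 17 at *Nap1l5* and *Mest*, 28 at *Dazl*, 38 at *Ddx4*, 24 at *Mael*, 21 at *Sycp1* and 15 at *Sycp3*, against a median of 14 over the same 300 bases at all 20406 coding starts and 25 at the CpG-rich ones. CpG-rich here means a GC content of at least 50% and an observed-to-expected CpG ratio of at least 0.6 over the 500 bases on each side of the start. The 3 imprinted promoters thus have 13 to 17, the 4 germline promoters with a peak in every library 21 to 38, and *Sycp3* lies between the imprinted ones.

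The annotation has 25820 coding transcripts on these chromosomes. Of the promoter regions, 5086 lie at 1 gene and 178 at more than 1, as at the back-to-back promoters of *Peg3* and *Usp29*. The median length was 4800 bp (quartiles 2800 and 8400), against 3000 bp for the 136599 merged regions under 20 kb away from coding starts. Mean GC content was 48.7% against 45.3%, and soft-masked repeats made up a mean of 21.3% of the sequence against 38%. By chromosome, the share of coding genes with a promoter region ran from 20.9% on chromosome 10 to 33.0% on chromosome 7. A peak was present in all 6 libraries at 1218 promoter regions (23.1%) and in 1 library at 890 (16.9%). The same shares over all merged regions were 22.5% and 28.6%.

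Per the study's methods the aligned reads were subsampled to a like number per library before peak calling. The *Uhrf1* KO lists, which share their background reads, do not bear this out. At the upstream start of *Igf2*, replicate 1 had 318 ChIP and 99 background reads at a log2 fold over background of 2.22. Replicate 2 had 933 and 101 at 2.86. The authors' log2 fold is scaled to library size, so replicate 1 had the lower depth. The lists give only reads inside called peaks, which move with depth and with how much was called. The reads within all called peaks on these chromosomes numbered 17882274 to 19130406 in the wild-type and *Dhx9* KO libraries, 15627480 in *Uhrf1* KO replicate 2 and 5856789 in *Uhrf1* KO replicate 1, whose peaks also covered the least, 188 Mb against 384 Mb in wild-type replicate 1. Of these, 177544 (*Uhrf1* KO replicate 1) to 981660 (wild-type replicate 1) lay in promoter regions. Peaks with the same limits in 2 lists had the same background reads in 100% of cases among the 4 lists of wild-type and *Dhx9* KO and between those of *Uhrf1* KO, and in 1.88% to 3.75% of cases between the 2 sets, so in any comparison with *Uhrf1* KO the background cannot be told apart from genotype. The lists hold no reads outside peaks, so a region without a peak in a library has no value there. No promoter region was found at *Uhrf1*, *Dhx9*, *Setdb1*, *Trim28*, *Pou5f1*, *Nanog* or *Gapdh*, and peak lists do not show the deletion itself.

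H3K9me3 peaks were rarer at CpG-rich starts than at other starts. Of the 9189 coding genes with a CpG-rich start, 1493 had a promoter region (16.2%), against 3609 of the 8759 other coding genes (41.2%). Counting every called peak, the 2 wild-type libraries covered 3.02% and 3.37% of the 9906 CpG-rich starts but 15.2% and 14.5% of positions 10 kb away. At the 10500 other starts they covered 23.2% and 22.1%, close to the 21.2% and 20.4% at 10 kb. The dip at CpG-rich starts was present in every library: coverage at the start was 0.144 to 0.232 of that at 10 kb. The other starts had ratios of 0.644 in *Uhrf1* KO replicate 1 and 0.923 to 1.09 in the remaining libraries.

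**Figure D1:**
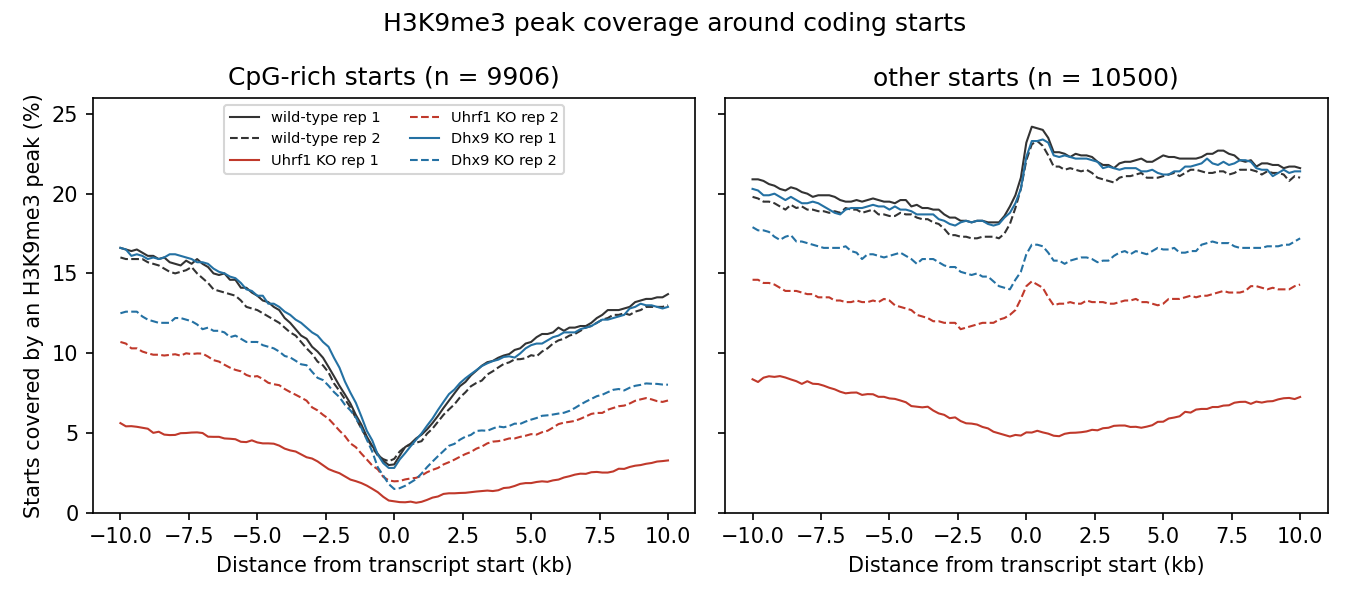
Share of coding starts (%) covered by an H3K9me3 peak at each distance (kb, 5′ on the left) from the transcript start, for 9906 CpG-rich starts and 10500 other starts, with 1 line per library. All 6 lines dip at CpG-rich starts (to 3.02% and 3.37% at the start in wild-type cells). At the other starts *Uhrf1* KO replicate 1 falls less deeply, from 7.8% at 10 kb to 5.03% at the start, and the remaining lines have no such dip. *Uhrf1* KO replicate 1 runs lowest throughout.

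Promoter peaks were weaker than peaks in general. The authors' log2 fold of ChIP over background for peaks within 1 kb of a start had a median of 0.88 and 0.87 in wild-type cells, against 1.04 and 1.05 over all peaks. In *Uhrf1* KO cells these medians were 1.4 and 1.04 against 1.54 and 1.26, and in *Dhx9* KO cells 0.82 and 0.91 against 0.92 and 1.01. Peaks with a log2 fold of at least 2 made up 3.46% and 3.53% of the promoter peaks in wild-type cells and 11.2% and 11.8% of all their peaks. The log2 folds of *Uhrf1* KO rest on another background and are compared with the other genotypes only as they stand in the lists. The median promoter peak held 150 and 135 ChIP reads in wild-type cells, 57 and 134 in *Uhrf1* KO, and 138 and 134 in *Dhx9* KO.

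The strongest promoter regions of wild-type cells were, by the lower of the 2 wild-type log2 folds, at *Gm156*, *Olfr149*, *Il3ra*, *Gh*, *4930512M02Rik*, *Pcdha8*, *Olfr212* and *Igf2*. *Gh*, the growth hormone gene, had log2 folds of 2.65 and 2.56 in wild-type, 2.67 and 3.18 in *Uhrf1* KO, and 2.00 and 2.42 in *Dhx9* KO. *Igf2*, an imprinted growth factor gene, had 2.46 and 2.69, 2.22 and 2.86, and 1.80 and 2.13 in the same order at its upstream start (chr7:142664801-142673200). *Olfr149*, an olfactory receptor gene, had 2.74 and 2.67, 3.01 and 3.72, and 1.95 and 1.97. All 8 regions but *Gm156* had a peak in all 6 libraries. *Gm156* had peaks of only 48 to 57 reads in 4 libraries and none in *Uhrf1* KO replicate 1 and *Dhx9* KO replicate 1.

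In *Uhrf1* KO, fewer promoter regions carried a peak. Wild-type replicates had a peak in 3954 and 3909 of them (75.1% and 74.3%), *Uhrf1* KO replicates in 1567 and 2658 (29.8% and 50.5%), and *Dhx9* KO replicates in 4140 and 3474 (78.6% and 66.0%). Both *Uhrf1* KO libraries lie below both wild-type libraries, while the *Dhx9* KO libraries lie on either side. The share of all merged regions with a peak was 58.8% and 60.0% in wild-type, against 37.0% and 48.5% in *Uhrf1* KO, so both knockout libraries hold a smaller part of either set. A promoter region with a peak in each wild-type library and none in the 2 libraries of a knockout was counted as lost, and the opposite as gained. Of 3420 promoter regions called in both wild-type libraries, 1111 were lost in *Uhrf1* KO (32.5%), against 23.4% of all merged regions. At the 735 regions at noncoding transcript starts the share was 25%. No test was made of these shares, since regions are not replicates.

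The reverse was less common. Of 1425 promoter regions called in both *Uhrf1* KO libraries, 70 had no peak in either wild-type library (4.91%), against 8.02% of all merged regions. Without *Uhrf1* KO replicate 2, 2076 promoter regions (60.7%) counted as lost and 136 as gained (8.68%, against 19.5% of all merged regions). Without *Uhrf1* KO replicate 1, the library with the fewest reads in peaks, 1162 were lost (34.0%) and 187 gained (7.04%, against 13.2%). Lost promoter regions thus outnumbered gained ones with either knockout library alone. The lost share stayed above that of all regions, 46.0% and 25.3% in the same order.

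**Figure D2:**
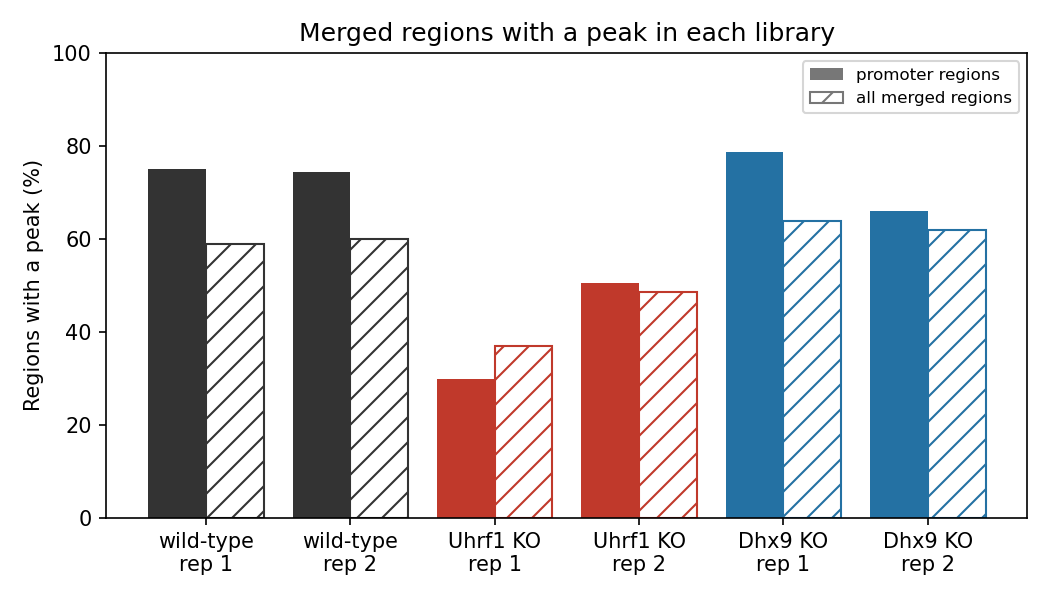
Share (%) of the 5264 promoter regions (filled bars) and of all 145014 merged regions (hatched bars) with a peak in each of the 6 libraries. The filled bars stand at 75.1% and 74.3% in wild-type, 29.8% and 50.5% in *Uhrf1* KO, and 78.6% and 66.0% in *Dhx9* KO.

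The share of coding starts whose first base lay in a promoter-region peak was 11.1% and 10.8% in wild-type (mean 11.0% ± 0.253, SD, n = 2), 2.37% and 6.56% in *Uhrf1* KO (4.47% ± 2.96, SD, n = 2), and 10.9% and 7.40% in *Dhx9* KO (9.14% ± 2.46, SD, n = 2). In an exact two-sided permutation test over libraries the difference of -6.50 percentage points for *Uhrf1* KO had p = 0.333, the smallest value that 2 against 2 libraries allow, and that of -1.83 points for *Dhx9* KO had p = 0.667.

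The loss in *Uhrf1* KO went with the base composition and the wild-type strength of a region. Among promoter regions called in both wild-type libraries, 8.77% of those under 44% GC were lost, then 21.6%, 35.3% and 55.1% in steps of 4 percentage points, and 68.5% (74 of 108) of those with 56% GC or more. Regions away from coding starts had 8.25%, 24.2%, 40.7%, 60.4% and 50.3% in the same classes, so that the share of promoter regions was the lower one in 3 of the 5 classes, and no test was made of it. By length it was the higher one in all 4 classes, with 57.1% against 43.3% under 2 kb and 14.2% against 7.46% from 10 kb up. By soft-masked share, promoter regions had 57.1% lost against 48.8% under 10% masked, and 33.8% against 30.2% from 10% to 25%. They had 21.4% against 23.1% from 25% to 50%, and 7.69% against 10.5% from 50% up. By the lower wild-type log2 fold, they had 66.5% against 54.9% under 0.5, and 35.5% against 31.6% from 0.5 to 1. From 1 to 1.5 both sets had 16.3%, and from 1.5 to 2 promoter regions had 9.68% against 9.53%. At a log2 fold of at least 2 the share was 11.9% of 118 promoter regions, against 3.65% of 6635 regions away from coding starts. These 14 lost regions include 3 at imprinted genes (*Nap1l5*, *Snrpn* with *Snurf*, and *Impact*), of 4 imprinted regions this strong. The part of base composition and of the reads in peaks in these shares was not tested.

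**Figure D3:**
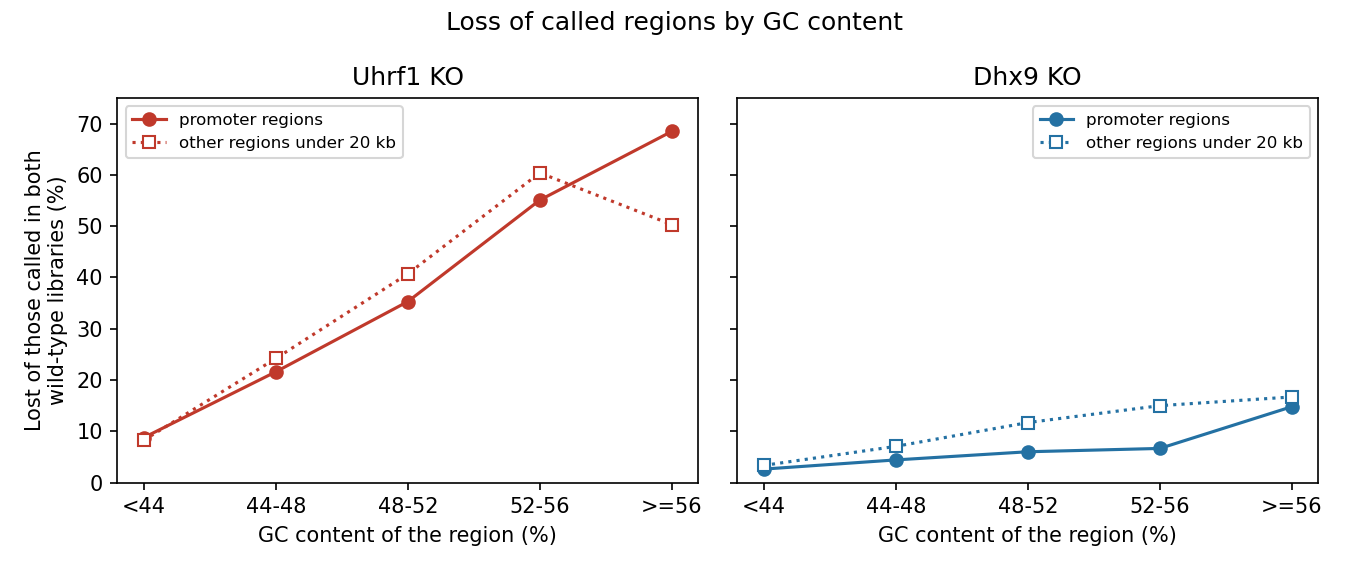
Share (%) of regions called in both wild-type libraries that had no peak in either knockout library, by GC content class (%), for promoter regions (filled circles) and other merged regions under 20 kb (open squares). In *Uhrf1* KO the promoter regions go from 8.77% to 68.5% and the other regions from 8.25% to 60.4% and then 50.3%, while in *Dhx9* KO the promoter regions go from 2.63% to 14.8%.

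Gene by gene, with a peak required within 1 kb of a start, 2425 coding genes had one in both wild-type libraries. Of these, 1054 had none in either *Uhrf1* KO library (43.5% of all such genes), and 301 had none in either *Dhx9* KO library (12.4%). The *Uhrf1* KO count was 1815 without *Uhrf1* KO replicate 2, 1587 without wild-type replicate 1 and 1659 without wild-type replicate 2, and the *Dhx9* KO count was 822 without *Dhx9* KO replicate 1, 619 without wild-type replicate 1 and 644 without wild-type replicate 2. The gene lists below are read against these shares, and no list was tested against them.

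Imprinted genes had a larger lost share in *Uhrf1* KO than all genes. Of 61 imprinted genes in the annotation, 17 had a promoter peak in both wild-type libraries, 11 of them had none in either *Uhrf1* KO library (64.7%), and all 17 kept one in both *Dhx9* KO libraries. With 1 wild-type library left out, either one, 15 of 21 were lost in *Uhrf1* KO, and in *Dhx9* KO 3 of 21 were lost without wild-type replicate 1 and 4 of 21 without wild-type replicate 2. The 11 were *Peg3*, *Usp29*, *Snrpn*, *Snurf*, *Mest*, *Plagl1*, *Nap1l5*, *Impact*, *Nhlrc1*, *Magel2* and *Dio3*. *Peg3* and *Usp29* share a region, as do *Snrpn* and *Snurf*, and with each such region counted once 9 of 15 promoters were lost (60%). The list was made with earlier results at imprinted loci known and is no independent evidence of its direction. The count was 11 without *Uhrf1* KO replicate 1, 14 without *Uhrf1* KO replicate 2, and 11 of 15 with an equal number of peaks per library.

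At *Peg3* and *Usp29* (chr7:6722001-6733000) the wild-type peaks held 806 and 690 ChIP reads at log2 folds of 1.92 and 2.09. The *Uhrf1* KO libraries had no peak there, and the *Dhx9* KO libraries had 416 and 599 reads at 1.46 and 1.5. At *Snrpn* and *Snurf* (chr7:60002601-60005600), the control region of the Prader-Willi cluster, wild-type had 263 and 318 reads at 2.11 and 2.44, and *Dhx9* KO 121 and 197 reads at 0.92 and 1.36. Both *Dhx9* KO values lie below both wild-type values at each of these promoters.

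*Mest* (chr6:30727001-30741200) had log2 folds of 2.10 and 1.86 in wild-type and 1.24 and 1.37 in *Dhx9* KO. *Plagl1* (chr10:13087801-13097000), which encodes a zinc finger growth regulator, had 1.90 and 1.68 against 1.13 and 1.36. *Nap1l5* (chr6:58905001-58908800) had 2.48 and 2.18 against 1.12 and 0.99. The same order held at *Impact* (chr18:12971001-12976200), with 2.20 and 2.33 against 1.68 and 1.73. None of these 4 had a peak in either *Uhrf1* KO library.

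*Dio3*, which encodes a thyroid hormone deiodinase, went the other way in *Dhx9* KO, with log2 folds of 1.52 and 1.48 in wild-type and 2.45 and 2.10 in *Dhx9* KO, though its peaks held 141 and 132 reads in wild-type and only 60 and 47 in *Dhx9* KO. At *Nhlrc1* (chr13:46999401-47016000), wild-type had 2.04 and 1.83 and *Dhx9* KO 1.25 and 1.87. This region also holds peaks of both *Uhrf1* KO libraries, but none of them reaches within 1 kb of the start. *Cdh15* and *Zfp787* had no promoter region.

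Over the imprinted regions with a peak near the start in both wild-type and both *Dhx9* KO libraries, both *Dhx9* KO log2 folds were below both wild-type ones at 9 of 15 (60.0%), with a median difference of -0.52. Over all promoter regions this held at 494 of 1432 (34.5%), with a median of -0.12. The 2 sets were not matched for strength: the median wild-type log2 folds were 1.9 and 1.68 at the imprinted regions and 1.06 and 1.04 over all. Strong peaks were also fewer in *Dhx9* KO genome-wide. Peaks with a log2 fold of at least 2 made up 4.13% and 6.45% of all its peaks, against 11.2% and 11.8% in wild-type. Whether the difference is particular to imprinted regions was not tested. These lists share 1 background, but each log2 fold also depends on the limits of its own peak.

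The imprinted genes that kept a peak in *Uhrf1* KO were few. *Igf2*, *Igf2r* and *Fkbp6*, which is also in the germline list, had one in all 6 libraries. At *Igf2* this was the upstream start, while its second promoter region (chr7:142643601-142657400), with 0.80 and 1.03 in wild-type and 1.33 in *Dhx9* KO replicate 1, had no peak within 1 kb of a start in either *Uhrf1* KO library or in *Dhx9* KO replicate 2. *Igf2r*, which encodes the receptor that clears IGF2, had log2 folds of 1.83 and 1.29 in wild-type, 1.90 and 2.56 in *Uhrf1* KO, and 1.19 and 1.78 in *Dhx9* KO. Both *Uhrf1* KO values lie above both wild-type values, and those of *Dhx9* KO overlap them. *Ins2*, *Grb10* and *Slc22a3* had a peak in *Uhrf1* KO replicate 2 but not in replicate 1, and at *Grb10*, which encodes an adaptor of growth signalling, its log2 fold was 0.72 beside 1.59 and 1.42 in wild-type.

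Germline genes had a smaller lost share in *Uhrf1* KO than all genes. Of 69 germline genes, 43 had a promoter region (62.3%, against 28.4% of all coding genes) and 30 had a promoter peak in both wild-type libraries. Of these, 3 had none in either *Uhrf1* KO library (10.0%), namely *Stag3*, *Smc1b* and *Sohlh2*, and 20 kept one in both. In *Dhx9* KO, 1 had none (*Tdrd6*), with 3 of 30 without *Dhx9* KO replicate 1, 2 of 30 without *Dhx9* KO replicate 2, 2 of 33 without wild-type replicate 1 and 3 of 34 without wild-type replicate 2. Without *Uhrf1* KO replicate 2 the lost count was 10 of 30, without wild-type replicate 2 it was 5 of 34, and with an equal number of peaks per library it was 2 of 22. Germline peaks were also stronger. Where both wild-type and both *Uhrf1* KO libraries had a peak near the start, the median wild-type log2 folds were 1.41 and 1.49 at germline regions. Over all such promoter regions they were 1.24 and 1.24. Counted by region, promoter regions with a lower wild-type log2 fold from 1 to 1.5 had 16.3% lost, and from 1.5 to 2 9.68%. The part of peak strength in the germline share was not tested.

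*Dazl* had ChIP reads of 200 and 202 in wild-type, 51 and 223 in *Uhrf1* KO, and 174 and 167 in *Dhx9* KO. Its log2 folds were 2.31 and 2.63, 1.89 and 2.21, and 1.95 and 2.14 in the same order, with both knockouts below wild-type. *Ddx4* had 1.41 and 2.60, 1.35 and 1.5, and 1.73 and 1.91, and the wild-type replicates spread around the *Dhx9* KO values. *Mael* had 1.41 and 2.22, 1.27 and 1.89, and 1.22 and 1.36.

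*Sycp1* had 1.45 and 1.37 in wild-type, 1.56 and 2.20 in *Uhrf1* KO, and 1.2 and 1.4 in *Dhx9* KO. *Sycp3* (chr10:88459201-88460600) had no wild-type peak and peaks of 33 and 117 reads in *Uhrf1* KO, at 1.06 and 1.28, and of 78 and 91 reads in *Dhx9* KO, at 0.64 and 0.63. It is thus a germline promoter called in both knockouts only. *Brdt*, a testis bromodomain gene, and *Syce3*, another synaptonemal complex gene, also had a peak in all 6 libraries, with wild-type log2 folds of 1.54 and 1.61, and 1.69 and 1.70.

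**Figure D4:**
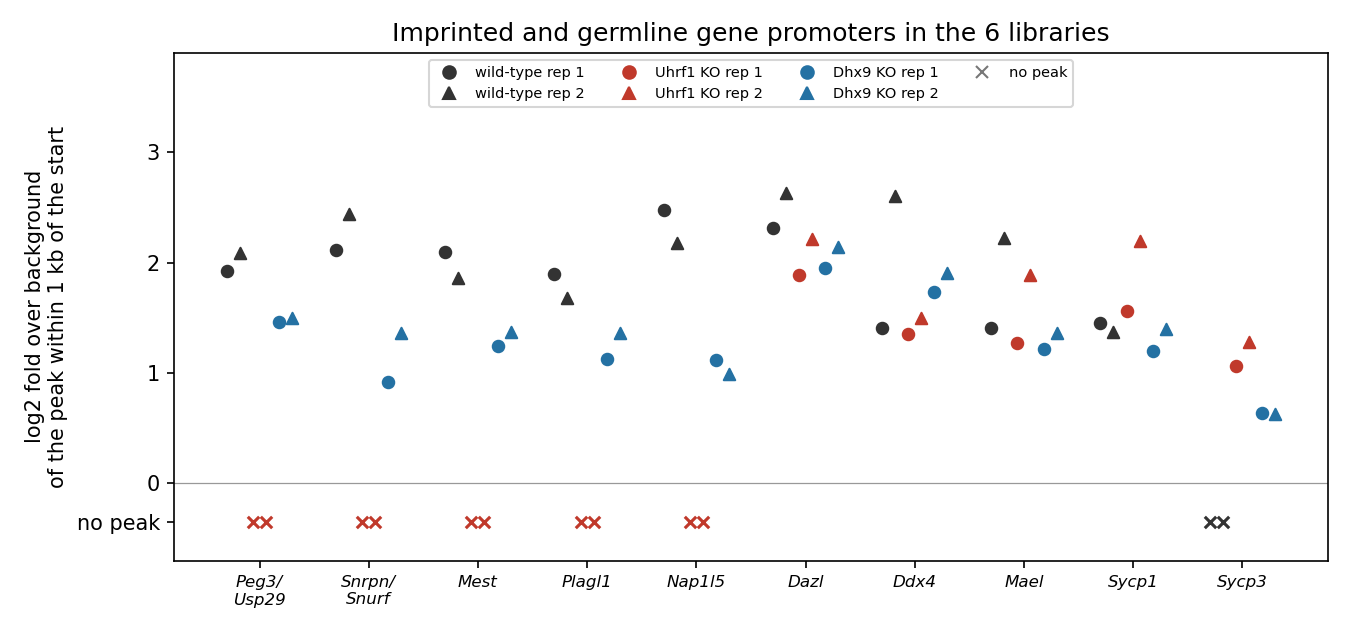
The authors' log2 fold over background of the peak within 1 kb of the start at 5 imprinted (left) and 5 germline (right) promoter regions in the 6 libraries, with circles for replicate 1, triangles for replicate 2 and crosses for no peak. The 5 imprinted promoters drawn have no peak in either *Uhrf1* KO library. *Dazl*, *Ddx4*, *Mael* and *Sycp1* have one in all 6, and *Sycp3* has none in wild-type. *Nhlrc1*, an imprinted gene also named in advance, is not drawn, and its values are given in the text.

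Motifs were searched on both strands of the 300 bases around each start. The methylated-DNA motif of ZFP57 (TGCCGC) was present at 15.1% of all coding starts and 24.3% of CpG-rich ones. It was present at 5 of the 12 starts of imprinted genes lost in *Uhrf1* KO (41.7%), counting starts near a peak of both wild-type libraries, and at 6 of the 35 germline starts (17.1%). The E-box bound by MGA and MAX (CACGTG) was present at 15 of the 35 germline starts (42.9%), at 1 of the 12 imprinted ones (8.33%), and at 8.07% of all coding starts and 11.1% of CpG-rich ones. The E2F6 motif (TCCCGC) stood at 42.9% of the germline and 50% of the imprinted starts, against 44.4% of CpG-rich starts. None of the 3 motifs contains another. In the stretches printed above, the E-box occurs at *Ddx4*, *Mael*, *Sycp1* and *Sycp3* and not at *Dazl*, and the ZFP57 motif at *Nap1l5*, *Mest* and *Dazl* and not at *Peg3*. A match is a description of the letters and not a binding site.

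Other clustered families held many promoter regions. Clustered protocadherins, cell-surface proteins of neurons that are each driven by a promoter of their own, had one at 45 of 58 genes (77.6%). Of the 28 with a peak in both wild-type libraries, 18 had none in *Uhrf1* KO (64.3%) and 9 none in *Dhx9* KO (32.1%). The latter count rested on *Dhx9* KO replicate 1, without which it was 19 of 28 (67.9%), against 33.9% of all coding genes. H2 genes of the major histocompatibility complex had 9 of 16 lost in *Uhrf1* KO (56.2%) and 1 in *Dhx9* KO (5 without *Dhx9* KO replicate 1, 3 of 21 without wild-type replicate 1), and the placental Prl, Psg and Ceacam genes 10 of 18 (55.6%) and 2. These 3 shares in *Uhrf1* KO lie above the 43.5% of all genes. Without *Uhrf1* KO replicate 2, when 74.8% of all genes were lost, they were 75% for protocadherins, 87.5% for H2 genes and 61.1% for the placental genes, the last then below the share of all genes.

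Several sensory, epithelial and metabolic families had smaller lost shares in *Uhrf1* KO than all genes when both of its libraries were used. Olfactory receptor genes had 58 of 171 lost in *Uhrf1* KO (33.9%) and 15 in *Dhx9* KO (8.77%). Keratin and keratin-associated genes had 14 of 47 (29.8%) and 4, cytochrome P450 genes 7 of 25 (28%) and 2, serpins 5 of 16 (31.2%) and 2, and defensins 3 of 10 and 2. Vomeronasal receptor genes, of which 10 of 325 were called in both wild-type libraries, had 0 lost in *Uhrf1* KO and 1 in *Dhx9* KO. With single libraries left out, keratin genes had 36 of 47 lost (76.6%) without *Uhrf1* KO replicate 2, above the 74.8% of all genes, and defensins 5 of 10 without *Uhrf1* KO replicate 1, above 45%. The other 4 families stayed below the share of all genes, olfactory receptor genes only just. Without *Uhrf1* KO replicate 2, olfactory receptor genes had 127 of 171 lost (74.3%), against 74.8% of all genes. Vomeronasal genes had up to 5 of 18 lost (without wild-type replicate 2). In *Dhx9* KO, leaving out its replicate 1 raised the lost counts to 30 for olfactory receptor, 11 for keratin, 5 for cytochrome P450 and 4 for serpin genes. Within these families the peaks of *Krtap1-5* (2.42 and 2.11 in wild-type) and *Krtap9-3* (2.36 and 2.70) were absent from both *Uhrf1* KO libraries, and those of *Cyp2d12*, *Cyp2c40*, *Serpina1c* and *Vmn1r88* were present in all 6. Genes of these families resemble each other, and reads that fit several copies can be split between them.

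Zinc finger genes had a promoter region at 55 of 362 genes (15.2%, against 28.4% of all coding genes). Of the 20 that both wild-type libraries called, 6 were lost in *Uhrf1* KO and 3 in *Dhx9* KO, with up to 12 of 29 and 8 of 29 without wild-type replicate 1 and 11 of 20 lost without *Uhrf1* KO replicate 2. *Zfp629* was among the 6, with log2 folds of 2.36 and 2.40 in wild-type and 1.53 and 2.19 in *Dhx9* KO, while *Zfp575*, which shares its region with *Ethe1*, had 1.69 and 1.55 in wild-type, with 2.70 and 2.94 in *Uhrf1* KO. Two-cell-stage genes, active in the early embryo, had 6 called in both wild-type libraries, of which *Usp17lb* was lost in *Uhrf1* KO, and *B020004J07Rik*, *Tdpoz4* and *Tcstv3* had a peak in all 6 libraries.

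Other lists are read against the 28.4% of all coding genes that had a promoter region. Of 72 cytoplasmic ribosomal protein genes, 2 had one (2.78%), and of 30 Hox genes also 2 (6.67%, *Hoxb1* and *Hoxa10*). Of 22 pluripotency genes, 5 had one (22.7%), a share near that of all genes, and *Dppa3* and *Esrrb* were the 2 with a promoter peak in both wild-type libraries and kept one in all 6. At *Esrrb*, the region with wild-type values of 1.18 and 1.13 (chr12:86417801-86423000) had no peak in *Uhrf1* KO replicate 1. The call of *Esrrb* in that library thus comes from another promoter region of the gene. *Dppa3*, which protects methylated DNA in the early embryo, had log2 folds of 1.36 and 0.96 in wild-type, 1.51 and 1.56 in *Uhrf1* KO, and 1.4 and 1.55 in *Dhx9* KO. Of 21 genes of H3K9 methylation and HP1, 1 had a promoter region (4.76%), *Atf7ip*, the partner of SETDB1, with a peak in all 6 libraries. Of 17 DNA methylation genes, 4 had one (23.5%), and *Dnmt3l*, the cofactor of the de novo DNA methyltransferases, was lost in *Uhrf1* KO from wild-type values of 0.81 and 0.39 in a region shared with *Aire*. Of 16 neuronal lineage genes, 5 had one (31.2%), and *Rbfox3* kept it in all 6 libraries, at 1.13 and 1.15 in wild-type.

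**Figure D5:**
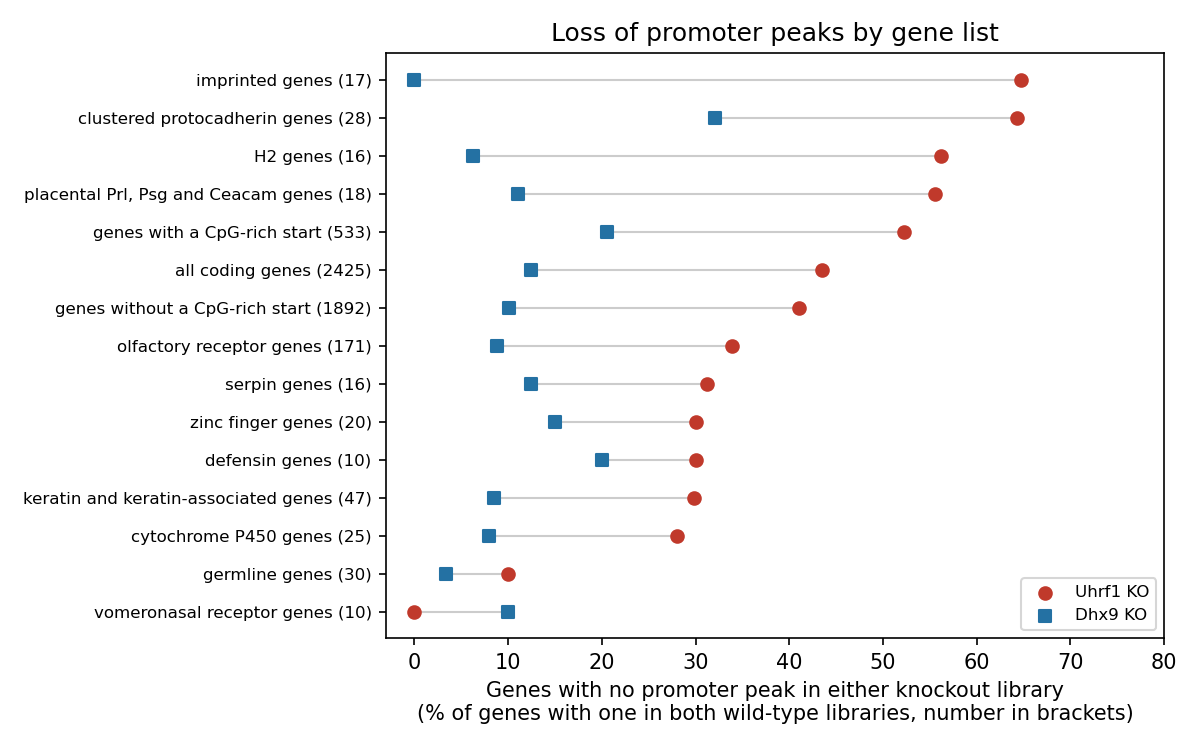
For each gene list with 10 or more genes that had a promoter peak in both wild-type libraries (number in brackets), the share of those genes (%) with no promoter peak in either *Uhrf1* KO library (circles) or either *Dhx9* KO library (squares). In *Uhrf1* KO the imprinted genes stand at 64.7%, next to the protocadherins at 64.3%, and the germline genes at 10.0%, against 43.5% of all coding genes.

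By the strength of the wild-type peak, the 5 lost regions of at least 1 kb that led in *Uhrf1* KO were at *Olfr410*, *Impact*, *Nap1l5*, *Olfr655* and *Krtap1-5*. *Olfr410* had 57 and 63 reads in wild-type at 2.41 and 2.61. The 5 leading gained regions were at *Scgb1b29*, *Vmn1r48*, *Nlrp9c*, *Elmod1* and *Gm609*. *Scgb1b29* (chr7:32441001-32442400), a secretoglobin gene, had 20 and 61 reads in *Uhrf1* KO at 3.28 and 3.26 and no peak elsewhere. *Gm609* (chr16:45489201-45498200) had 131 and 137 reads in *Uhrf1* KO and also 88 and 99 in *Dhx9* KO.

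In *Dhx9* KO, 189 of the 3420 promoter regions were lost (5.53%), against 6.77% of all merged regions. Of 3023 called in both *Dhx9* KO libraries, 175 were gained (5.79%), against 8.73% of all merged regions. With single libraries left out, 672, 345, 383 and 373 were lost without *Dhx9* KO replicate 1, *Dhx9* KO replicate 2, wild-type replicate 1 and wild-type replicate 2, or 19.6%, 10.1%, 9.80% and 9.43% against 16.9%, 15.0%, 14.2% and 13.2% of all merged regions. Without *Dhx9* KO replicate 1 the promoter regions thus had the higher share, and with the other libraries left out the lower one. Gained were 366, 524, 319 and 287 in the same order, or 10.5%, 12.7%, 10.6% and 9.49%. The gained shares of all merged regions were 21.5%, 21.1%, 14.3% and 14.6%. The 2 knockouts were compared with the same wild-type libraries. The lost sets shared 142 regions, which are 75.1% of those lost in *Dhx9* KO and 12.8% of those lost in *Uhrf1* KO. The gained sets shared 26, or 14.9% and 37.1%.

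The leading lost regions in *Dhx9* KO were at *Olfr684*, *Olfr1490*, *Ins1*, *Vmn1r176*, and *Ccnk* with *Setd3*. *Ins1* (chr19:52264001-52265000), an insulin gene, had 64 and 68 reads in wild-type at 1.91 and 2.61 and no peak in any knockout library. *Ccnk* and *Setd3* had 64 and 38 reads in wild-type and kept peaks in *Uhrf1* KO, at 1.48 and 2.08. The leading gained regions were at *Ildr2*, *Zscan25*, *Cyp2j5*, *Trpm6* and *Nt5dc1*. *Zscan25* (chr5:145283201-145284800), a zinc finger gene, had 94 and 89 reads at 1.86 and 1.63 in *Dhx9* KO and no peak elsewhere, as did *Ildr2*, *Cyp2j5* and *Nt5dc1*, while *Trpm6* also had peaks in *Uhrf1* KO.

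Read counts were tested only where a region had peaks in all 4 libraries covering at least 80% of it, which leaves out every lost region. For *Uhrf1* KO, 43 promoter regions entered among 1387 regions. By the quasi-likelihood test of edgeR, with p adjusted over all regions by the Benjamini-Hochberg method, 5 fell and 2 rose, against 6.20% and 1.51% of all regions tested that fell and rose. Those that fell were *Pcdha10* and *Pcdha9*, *Itln1*, the cytokine receptor gene *Il3ra*, and *Fbxo22*, which encodes an F-box protein. Those that rose were *Ercc3*, a DNA repair helicase gene, and *Chfr*, a mitotic checkpoint gene. At an unadjusted p under 0.05 there were 12 and 9.

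*Pcdha10* (chr18:37005601-37007800) had 198 and 192 reads in wild-type against 36 and 113 in *Uhrf1* KO, a log2 change of -1.18 ± 0.20 (SE, n = 2 libraries per genotype) with edgeR adjusted p = 0.00393. *Itln1* (chr1:171523601-171536800), an intelectin gene, had 1661 and 1487 against 661 and 1100, a change of -0.70 ± 0.14 with edgeR adjusted p = 0.00942. *Ercc3* (chr18:32241201-32248600) had 339 and 272 against 231 and 661, a change of 0.56 ± 0.13 with edgeR adjusted p = 0.0181. *Fbxo22* (chr9:55209001-55209600) had 144 and 130 against 28 and 113, a change of -0.85 ± 0.24 with edgeR adjusted p = 0.0456. The *Fbxo22* change ran from -1.38 to -0.60 when 1 library was left out, and it missed the threshold with DESeq2 (adjusted p = 0.104), at 50% coverage (edgeR adjusted p = 0.056), with the replicate block (edgeR adjusted p = 0.0594) and with all 6 libraries in one fit (edgeR adjusted p = 0.1). *Ercc3* missed it with DESeq2 (adjusted p = 0.0585), at 50% coverage (edgeR adjusted p = 0.0601) and with all 6 libraries (edgeR adjusted p = 0.0509), and *Itln1* with all 6 libraries (edgeR adjusted p = 0.0934). *Chfr* missed the threshold with DESeq2 (adjusted p = 0.1) and at 50% coverage (edgeR adjusted p = 0.08). It also did with the replicate block (edgeR adjusted p = 0.071) and with all 6 libraries (edgeR adjusted p = 0.101). *Il3ra* missed it with no length offset (edgeR adjusted p = 0.141), at 50% coverage (edgeR adjusted p = 0.0616) and with all 6 libraries (edgeR adjusted p = 0.0509). Raw reads of *Uhrf1* KO replicate 1 are low throughout, and the changes are relative to library sizes.

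These counts hung on single libraries and on the scaling. Without wild-type replicate 1 or wild-type replicate 2, 0 promoter regions passed in either direction, without *Uhrf1* KO replicate 1 there were 15 lower and 8 higher, and without *Uhrf1* KO replicate 2 there were 8 and 7. Without scaling between libraries 0 passed, and the median change over all regions moved from -0.04 to -0.22. DESeq2 gave 5 lower and 0 higher.

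When coverage of 50% was enough, 369 promoter regions entered for *Uhrf1* KO, and 27 fell and 3 rose (7.32% and 0.813%), beside 424 and 54 of all 11236 regions (3.77% and 0.481%). Of the 27, 6 were regions of the alpha protocadherin cluster on chromosome 18, at *Pcdha1*, *Pcdha5*, *Pcdha7*, *Pcdha8*, *Pcdha9* and *Pcdha10*, with log2 changes from -1.20 to -0.81. *Dazl* had -0.56 ± 0.22 (edgeR adjusted p = 0.137) and *Sycp1* 0.57 ± 0.21 (edgeR adjusted p = 0.128), and neither passed.

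For *Dhx9* KO, 131 promoter regions entered among 2708, and 1 fell and 0 rose in the edgeR test, against 0.295% and 0.0369% of all regions tested. At an unadjusted p under 0.05 there were 8 and 9, and DESeq2 gave 2 and 0. The region that fell was at *Fbxo22*, with 144 and 130 reads in wild-type and 46 and 45 in *Dhx9* KO, a log2 change of -1.58 ± 0.19 (SE, n = 2 libraries per genotype) with edgeR adjusted p = 0.00268, and edgeR adjusted p = 0.0692 with all 6 libraries in one fit. The promoter region of *Snrpn* and *Snurf* had -0.94 ± 0.18 with edgeR adjusted p = 0.0766. Lower and higher counts were 8 and 7 without *Dhx9* KO replicate 1, 10 and 11 without *Dhx9* KO replicate 2, 2 and 1 without wild-type replicate 1, and 1 and 1 without wild-type replicate 2.

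With coverage of 50%, 1226 promoter regions entered for *Dhx9* KO and 4 fell (0.326%), beside 25 of all 22755 regions (0.110%). The 4 were at *Fbxo22*, *Gfm1*, *Dcdc2a* and *Nap1l5*. *Nap1l5* had a log2 change of -1.14 ± 0.19 with edgeR adjusted p = 0.0356. None of the other imprinted promoters that entered passed. *Snrpn* and *Snurf* had -0.96 ± 0.18 (edgeR adjusted p = 0.0658), and *Peg3* and *Usp29* -0.40 ± 0.13 (edgeR adjusted p = 0.289). *Plagl1* had -0.38 ± 0.15 (edgeR adjusted p = 0.381), *Mest* -0.34 ± 0.12 (edgeR adjusted p = 0.337) and *Impact* -0.18 ± 0.16 (edgeR adjusted p = 0.770). Changes were also negative at the upstream start of *Igf2* (-0.44), *Nhlrc1* (-0.28), *Ins2* (-0.17), *Phlda2* (-0.07) and *Igf2r* (-0.03). They were positive at *Magel2* (0.35), *Pon3* (0.24), the second *Igf2* region (0.23), *Slc22a3* (0.22) and *Grb10* (0.008). At *Sycp1* the change was -0.01 ± 0.18 and at *Dazl* -0.26 ± 0.18, and neither passed.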

How the data were processed

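Genotypes of the 6 peak lists were taken from the sample labels. Per the study's methods and the submitters' processing notes, the authors aligned reads with Bowtie2 2.3.4.3 to mm10, subsampled them, kept duplicates and called peaks per library with epic2, named SICER 0.0.51 in those notes. For each peak the deposited lists hold raw counts of ChIP and background reads. The peak caller of the authors also wrote a p-value, its false discovery rate, a log2 fold over background scaled to library size, and a score, which was not used. Peaks consist of 200 bp bins, and positions here are 1-based on mm10, which matched GRCm38 in the chromosome ends of 18 chromosomes. Coding starts come from the deposited annotation.

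Overlapping peaks were merged in Python 3.11.15, with pandas 2.3.3, scipy 1.17.1 and numpy 2.4.6. For counts, edgeR 4.0.16 in R 4.3.3 was used with TMM scaling, an offset for the called length and a false discovery rate of 0.05. The SE is the log2 change divided by the root of the quasi-likelihood F. DESeq2 1.42.0 was an alternative. On simulated data, 183 of 200 regions changed 2-fold were recovered in the *Uhrf1* KO comparison of 1387 regions and 189 of 200 in the *Dhx9* KO comparison of 2708, beside 3 and 11 false calls. The simulation gave every region the same dispersion and kept the called lengths fixed. It therefore checks that the code runs as meant and does not show how the test fares on these libraries. Replicates differed by more than sampling noise (chi-square per degree of freedom of 9.52 to 31.8). The study calls them biological replicates, and each p-value measures only the spread between these libraries.

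The members, gene lists and tests were chosen with earlier results of these data known. Named genes are the 8 strongest wild-type regions, the 5 leading lost and gained regions of at least 1 kb per knockout, up to 5 regions per direction and count test, up to 4 genes per list by wild-type log2 fold, and 20 genes named in advance. Other members of a list, and regions past the threshold at 50% coverage, were named after their values were seen. Promoter sequences were matched to 13595 of 17948 coding genes by symbol.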

Additional observations from a re-analysis of the deposited data

How the results depend on the processing

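Of the counts of lost regions, those of *Uhrf1* KO moved with stricter peaks: 700 at a false discovery rate of at most 1e-10, 366 at a log2 fold of at least 1 and 350 with an equal number of peaks per library, with fewer regions called in wild-type cells under each (1799, 1190 and 1412 against 3420). The share lost then was 38.9%, 30.8% and 24.8%, against 24.4%, 21.9% and 18% of all merged regions. Gained counts under the same settings were 40, 112 and 150 in *Uhrf1* KO and, for the first 2, 86 and 81 in *Dhx9* KO. Another window, length limit or merging rule left all 4 counts within 1.5 times. Leaving out 1 library gave 1162 to 2076 lost and 101 to 187 gained regions in *Uhrf1* KO, and 345 to 672 and 287 to 524 in *Dhx9* KO.

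The count tests moved more. For promoter regions in *Uhrf1* KO, lower and higher counts were 5 and 0 by DESeq2, 0 and 0 when library sizes were taken as equal, 4 and 7 with no length offset, 27 and 3 at 50% coverage and 1 and 0 with all 6 libraries in one fit (27 promoter regions), where over all regions they were 58 and 7, 0 and 0, 92 and 71, 424 and 54, and 23 and 4, against 86 and 21 as reported. In *Dhx9* KO, promoter regions gave 2 and 0 by DESeq2, 4 and 0 at 50% coverage and 0 and 0 with all 6 libraries, and all regions gave 15 and 0, 25 and 1, and 2 and 0, with 6 and 0 for equal library sizes, against 8 and 1. The filter on low counts removed 0 regions. Leaving out 1 library, with the lone library of a genotype taken to vary like the others, gave 0 to 15 lower and 0 to 8 higher promoter regions in *Uhrf1* KO (1 to 231 and 0 to 103 of all regions), and 1 to 10 and 1 to 11 in *Dhx9* KO (6 to 292 and 1 to 143).

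With the replicate number as a block, *Uhrf1* KO gave 4 lower and 1 higher promoter regions (66 and 12 of all regions) and *Dhx9* KO 2 and 1 (13 and 2). Nothing says that the numbers pair the libraries, and same-numbered libraries deviated together with a correlation of 0.07 for *Uhrf1* KO and -0.05 for *Dhx9* KO. For the coding starts covered, the difference kept its sign under the 3 alternatives, from -9.32 to -1.87 percentage points in *Uhrf1* KO and from -1.19 to -0.77 in *Dhx9* KO. The counts of imprinted and germline genes lost in *Uhrf1* KO, recomputed under settings added after seeing the data, were 11 to 13 and 2 to 4 under the stricter peak filters, and 11 to 15 and 3 to 10 without 1 library.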
